A study of Mus musculus with 6 samples.

Results

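Cell cycle and proliferation genes were examined in the RPE-choroid of mice with subretinal fibrosis. They are 41 genes named for their known place in the cell cycle machinery, among 15663 genes listed in the count tables. The rule uses no measured value, but the genes were chosen with earlier results of these data known. All 41 were listed, and 33 passed the requirement of more than 50 counts in at least 2 libraries and were tested. The other 8 were Ccne1, Cdc6, Plk1, Aurka, Aurkb, Bub1, Kif23 and Ube2c. The tissue combines the retinal pigment epithelium (RPE), which nourishes the photoreceptors, with the blood vessels of the choroid beneath it. Subretinal fibrosis (SRF) was induced in 3 young adult male C57BL/6 mice (C57BL/6J in the study's methods) by 4 laser burns per eye, with a second burn to every lesion 10 days later, and the eyes were sampled 20 days later. The 3 control mice of the same strain were healthy and untreated. Each library came from a separate mouse, the whole RPE-choroid was sequenced rather than the lesions alone, and the study's question was which genes differ between fibrotic and control tissue.

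A dividing cell passes from G1 into S phase, when cyclin D and cyclin E kinases release E2F factors from the retinoblastoma proteins and replication genes are switched on. Mitotic genes are expressed later, in G2 and M phase, when cyclin B and CDK1 drive entry into mitosis and the anaphase-promoting complex then degrades the cyclins. Adult RPE cells normally do not divide, whereas macrophages, fibroblasts and endothelial cells can do so in a wound. In bulk tissue, fewer cells of a type and less RNA per cell cannot be told apart.

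Genes of these 2 phases are known to carry different promoter elements. The cell cycle genes homology region (CHR), with the letters TTTGAA, is known from mitotic genes, as is the box spelled CCAAT, whereas E2F sites are known from S phase genes. The E2F core searched for here had 4 forms. The first was TTCCCGC and the next was TTCGCGC. The remaining forms were TTGCCGC and also TTGGCGC. All were searched on both strands, and the last form, read on the other strand, can overlap a CCAAT box. The 150 bases before the RefSeq start (GRCm38.p6) are shown for 5 of the genes, 5′ to 3′ on the strand of the gene, with the matches in capitals. Cdk1, Mki67 and Top2a are examples of the mitotic genes and Mcm5 and Mcm6 of the replication genes.
Cdk1 (chr10:69352913-69353062, - strand): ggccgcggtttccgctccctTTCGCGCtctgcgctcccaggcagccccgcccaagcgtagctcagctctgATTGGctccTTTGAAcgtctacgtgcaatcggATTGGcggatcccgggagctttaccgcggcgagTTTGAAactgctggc
Mki67 (chr7:135716380-135716529, - strand): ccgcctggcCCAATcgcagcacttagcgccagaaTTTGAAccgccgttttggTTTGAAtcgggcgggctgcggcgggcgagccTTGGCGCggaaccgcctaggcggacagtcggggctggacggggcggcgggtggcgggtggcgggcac
Top2a (chr11:99024190-99024339, - strand): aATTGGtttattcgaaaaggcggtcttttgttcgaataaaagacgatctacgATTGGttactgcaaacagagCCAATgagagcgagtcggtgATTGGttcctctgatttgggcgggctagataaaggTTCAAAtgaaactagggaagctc
Mcm5 (chr8:75109359-75109508, + strand): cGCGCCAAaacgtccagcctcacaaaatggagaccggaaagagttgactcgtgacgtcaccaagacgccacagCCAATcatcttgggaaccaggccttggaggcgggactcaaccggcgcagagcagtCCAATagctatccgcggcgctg
Mcm6 (chr1:128359706-128359855, - strand): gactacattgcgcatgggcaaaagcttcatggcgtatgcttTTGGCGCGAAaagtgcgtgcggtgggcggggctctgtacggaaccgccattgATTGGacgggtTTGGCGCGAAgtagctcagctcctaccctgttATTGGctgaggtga
The Cdk1, Mki67 and Top2a stretches each held a CHR match, which those of Mcm5 and Mcm6 did not. All 5 held a CCAAT match, and all but Top2a an E2F core. Few mitotic genes held an E2F core (3 of 18 in the longer windows described below), so Cdk1 and Mki67 are not typical of them in this. The last 26 bases of the Cdk1 stretch lie within a GENCODE exon of the gene. A match is a description of the letters and not a measured binding site.

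RefSeq windows from 250 bases before to 50 after the start were found for 33 of the 41 genes. The CHR was in 13 of 18 genes of mitosis, spindle and anaphase (72.2%) and in 2 of 15 genes of S phase, replication and nucleotide supply (13.3%). The E2F core was in 3 of the 18 (16.7%) and in 9 of the 15 (60%). The CCAAT box was in 16 of the 18 (88.9%) and in 11 of the 15 (73.3%). Of the 27025 genes with a window, 20.2% held a CHR, 41.1% a CCAAT box and 10.9% an E2F core. Among the 10520 tested genes with a window, the shares were 14.2%, 42.5% and 18.7%.

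**Figure D1:**
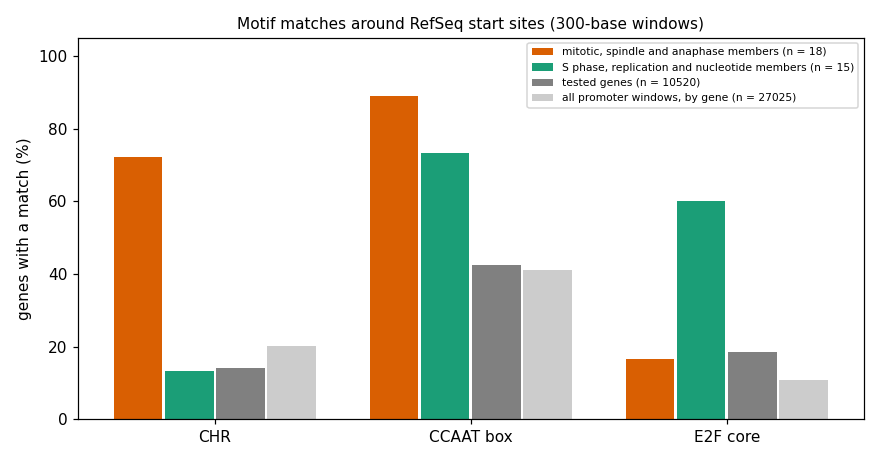
Share of genes (%) with a match to each motif in the RefSeq window around the start, for 18 mitotic, spindle and anaphase genes, 15 S phase, replication and nucleotide genes, 10520 tested genes and all 27025 genes with a window. The CHR bar is 72.2% for the mitotic genes and 13.3% for the S phase genes, and the E2F core bars run the other way, at 16.7% and 60%.

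Counts on listed genes summed to between 13667310 and 24356023 per library, so that 3 counts were worth 0.125 to 0.223 CPM (counts scaled to a common library size, here normalized by edgeR's TMM method). Markers of RPE were present, with all 12 listed and Rpe65 between 2524 and 4687 CPM. Control mouse 1 and SRF mouse 3 stood apart through photoreceptor RNA: the summed level of 19 photoreceptor markers was 14128 and 13659 CPM in these libraries and between 829 and 1953 CPM in the other 4. They were both the highest libraries in 3 of the 33 tested cell cycle genes (9.09%, Bub1b, Ccna2 and Pcna), compared with 15.5% of all tested genes. Values without them are given for these genes and for the groups and genes that moved most. Of the macrophage and microglia markers, 14 of 15 were higher in SRF mice. An unadjusted p under 0.05 in edgeR's quasi-likelihood test was found for 11, all higher (73.3%, against 4.16% of all tested genes). The summed level of the 15 was 1690 to 2149 CPM in control and 3898 to 5626 CPM in SRF mice. Lyz2 alone was at 743 to 1004 CPM in control and 2078 to 3305 CPM in SRF mice. Csf1r and Itgam had log2 fold changes of -0.03 and 0.03, against a median of 0.80 for the list. No marker of rods, cones, endothelium or ocular surface epithelium had such a p. All 12 ocular surface epithelium markers were nonetheless lower in SRF mice, with a median log2 fold change of -0.39. Their summed level was 425 to 2846 CPM in control and 852 to 1470 CPM in SRF mice. Of the RPE markers 9 of 12 were lower, 5 of them with such a p (41.7%, against 2.85% of all tested genes). Fibroblast markers were all above 0 (6 of 6, median log2 fold change 0.54), 1 of them with such a p (16.7%, against 4.16%). Their summed level was 4315 to 10072 CPM in control and 6626 to 11036 CPM in SRF mice. Of 6 tested lens markers 4 were lower with such a p (66.7%, against 2.85%), and of 3 tested lymphocyte markers 1 (33.3%). In lists this short these shares rest on few values. The part of these cells in the cell cycle values was not tested.

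Cell cycle genes were expressed at low to moderate levels in both groups. Only Ccnd1 and Cdk2 were above 50 CPM in every library, and 16 of the 41 were below 5 CPM in every library. On the length-scaled FPKM scale, averaged over the 6 libraries, the highest levels were those of Pcna (34.3), Cdk2 (30.9) and Ccnd1 (28.9), followed at a distance by Mcm6 (11.2) and Rrm1 (10.2). Cdk1 reached 8.88 FPKM, the proliferation marker Mki67 0.490 FPKM, and Bub1 was lowest at 0.133 FPKM. The summed CPM of the 41 genes was 534, 515 and 532 in control mice 1, 2 and 3 and 532, 541 and 512 in SRF mice 1, 2 and 3, so the groups overlapped.

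**Figure D2:**
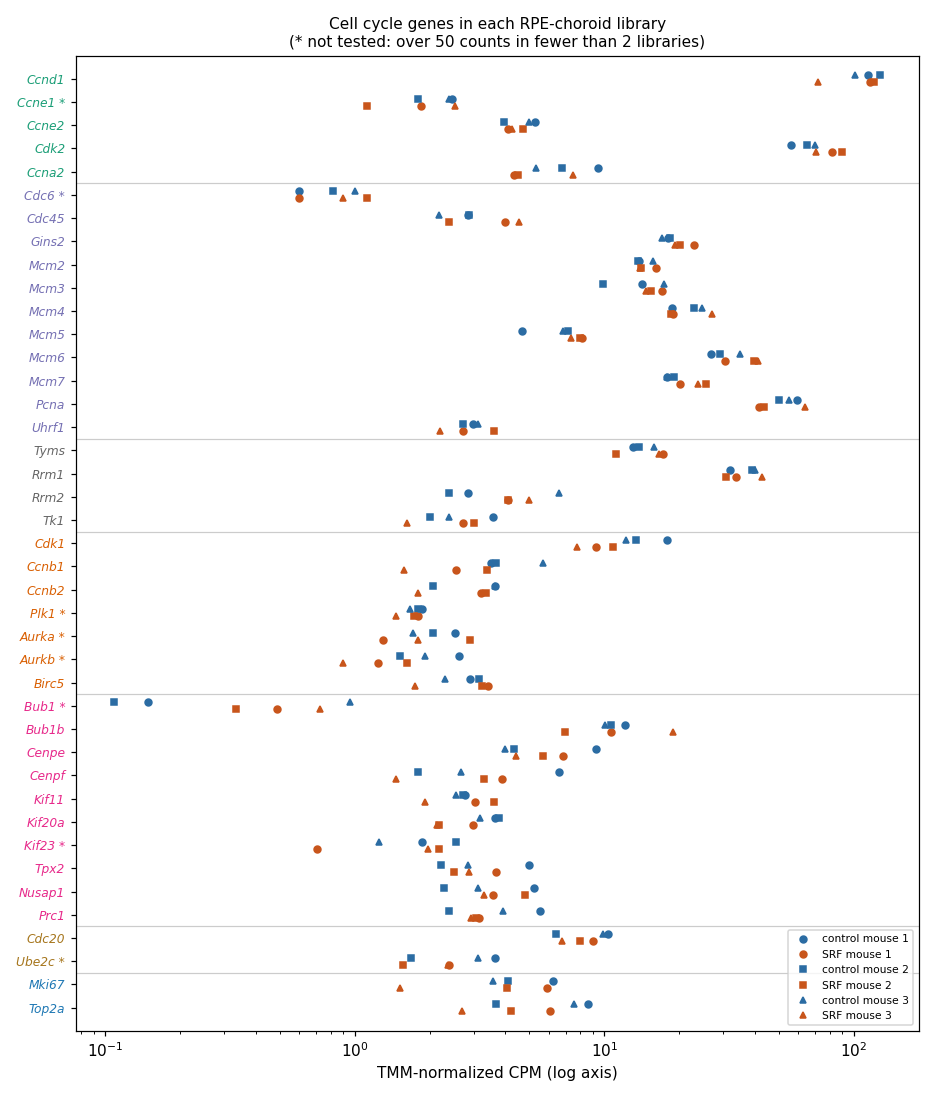
TMM-normalized CPM (log axis) of the 41 cell cycle genes in each library, grouped by role, with control mice in blue and SRF mice in orange and an asterisk on the 8 genes not tested. Ccnd1 and Cdk2 lie above 50 CPM in every library, and the blue and orange points of most genes overlap.

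None of the 33 tested genes passed an adjusted p under 0.05 with a log2 fold change of at least 0.5, in the quasi-likelihood test of edgeR adjusted by Benjamini-Hochberg over 13454 genes. Nor did any of the 13454 genes (0%). The lowest adjusted p among the cell cycle genes was 0.586, that of Cdk1. DESeq2 also called none of them, where it called 0.803% of all tested genes higher and 0.334% lower. At an unadjusted p under 0.05 in edgeR, Cdk2 and Mcm7 were higher (6.06% of 33, against 4.16% of all tested genes) and Cdk1 was lower (3.03% against 2.85%). By DESeq2, Cdk1 and Cdk2 had such a p. These shares were near those of all genes, and the values below are descriptions of genes that did not pass the test.

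Log2 fold changes (SRF minus control) ran from -0.78 to 0.48, with a median of -0.05 against 0.00 for all tested genes. Of the 33 genes, 14 were above 0 (42.4%, against 50.3% of all tested genes) and 19 below. The groups did not overlap in 4 genes higher in SRF mice (12.1%, against 6.71% of all tested genes) and in 3 lower (9.09% against 6.43%). The exact permutation p of each of these 7 was 0.1, the smallest that 3 mice against 3 allow. Among the 8 untested genes, 2 had the higher mean CPM in SRF mice and none was without overlap.

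The precision differed from that of the whole table. The median standard error (SE) of the 33 log2 fold changes was 0.33, against 0.19 for all tested genes. The 95% interval lay below +1, a doubling, for 28 genes, above -1 for 22, and within both limits for 18. An interval within these limits bounds the difference and does not show that the groups were alike.

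**Figure D3:**
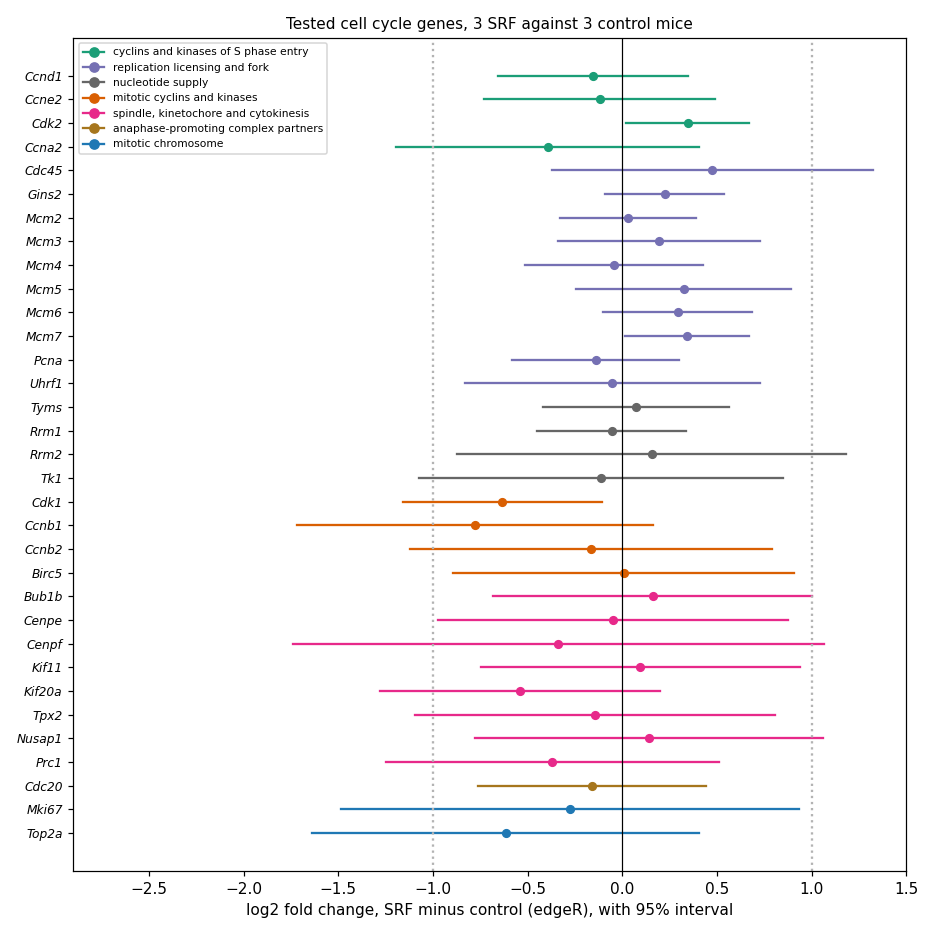
Log2 fold change (SRF minus control, edgeR) of the 33 tested cell cycle genes with 95% intervals, coloured by role, with dotted lines at -1 and +1. Only the intervals of Cdk1, below 0, and of Cdk2 and Mcm7, above 0, leave out 0.

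The cyclins and kinases of S phase entry had a median log2 fold change of -0.14 over 4 tested genes. Cdk2, the kinase partner of cyclins E and A, was at 56.2, 64.9 and 69.6 CPM in control mice 1, 2 and 3 and at 81.5, 90.0 and 70.8 CPM in SRF mice 1, 2 and 3. No SRF library was below a control library, but control mouse 3 and SRF mouse 3 were close. The means were 63.6 ± 6.81 and 80.8 ± 9.61 CPM (SD, n = 3), or a log2 fold change of 0.34 (SE 0.14) with an edgeR adjusted p of 0.672. Cdk2 lies opposite Pmel, a pigment cell gene, with which it shares 34 exon bases. Pmel averaged 1765 ± 143 CPM in control mice and 1941 ± 140 CPM in SRF mice (SD, n = 3), and since the strandedness of the libraries is not given in the sources used here, the part of its reads in the Cdk2 counts was not tested. Without control mouse 1 and SRF mouse 3 the log2 fold change of Cdk2 was 0.35.

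Ccnd1, cyclin D1, which carries growth signals into G1, was the most abundant of the 41 by CPM. It was at 114, 128 and 101 in the control mice and 116, 120 and 71.5 CPM in the SRF mice. The groups overlapped, with SRF mouse 3 lowest, and the log2 fold change was -0.15 (SE 0.21). Ccne2, a cyclin E, ranged from 3.96 to 5.29 CPM, and its log2 fold change was -0.12 (SE 0.26). Ccna2, cyclin A2, which acts in S phase and G2, was at 9.45, 6.78 and 5.30 in the control mice and 4.33, 4.51 and 7.51 CPM in the SRF mice. The 2 photoreceptor-rich libraries were its highest, and its log2 fold change was -0.39 (SE 0.34), or -0.45 without them. The untested Ccne1 was between 1.11 and 2.52 CPM. On the opposite strand, Ccnd1 shares 1100 exon bases with LTO1, at 40.8 ± 3.16 CPM in control and 36.2 ± 2.57 CPM in SRF mice (SD, n = 3). Ccne2 shares 609 with Ints8, at 12.1 ± 2.51 and 18.6 ± 2.65 CPM. Ccna2 shares 510 with Exosc9, at 28.0 ± 2.36 and 29.9 ± 6.10 CPM.

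Of the 10 tested genes of replication licensing and the fork, 7 had a positive log2 fold change, and the median was 0.21. MCM2 to MCM7 form the ring-shaped helicase that is loaded on origins in G1 and unwinds DNA in S phase. Mcm7 was at 17.8, 19.1 and 17.9 in the control mice and 20.2, 25.5 and 23.7 CPM in the SRF mice. All SRF libraries were above all control libraries. The means were 18.3 ± 0.725 and 23.1 ± 2.71 CPM (SD, n = 3), or a log2 fold change of 0.34 (SE 0.14, edgeR adjusted p 0.676). Mcm7 shares 64 exon bases with Cops6 and 321 with Ap4m1 on the opposite strand. Cops6 averaged 217 ± 5.64 CPM in control mice and 186 ± 8.79 CPM in SRF mice (SD, n = 3), and Ap4m1 averaged 6.39 ± 1.49 CPM and 6.20 ± 1.87 CPM.

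Mcm5, whose promoter is printed above, was at 4.69, 7.16 and 6.84 in the control mice and 8.11, 8.02 and 7.34 CPM in the SRF mice. SRF libraries were all above control libraries, and control mouse 1 was lowest (log2 fold change 0.32, SE 0.24). Mcm6 was at 26.8, 29.2 and 34.9 in the control mice and 30.3, 39.7 and 41.3 CPM in the SRF mice. SRF mouse 1 fell among the control values (log2 fold change 0.29, SE 0.17). The other helicase subunits had log2 fold changes of 0.03 for Mcm2, 0.19 for Mcm3 and -0.04 for Mcm4. Summed over MCM2 to MCM7 the level was 95.9, 102 and 117 in the control mice and 111, 121 and 128 CPM in the SRF mice, with overlapping groups.

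Gins2, a subunit of the GINS complex that activates the helicase, was at 17.9, 18.3 and 17.0 in the control mice and 22.8, 20.1 and 19.2 CPM in the SRF mice. The groups did not overlap (log2 fold change 0.22, SE 0.13). Gins2 shares 2758 exon bases, 67.3% of its exons, with Gse1 on the opposite strand, which averaged 6.86 ± 0.819 CPM in SRF mice and was lower in expression than Gins2 in both groups. Cdc45, the helicase's other activator, had the highest log2 fold change of the 33, 0.48 (SE 0.36), at levels of 2.17 to 4.54 CPM. SRF mouse 2 lay among the control values.

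Pcna, the sliding clamp of the replicative polymerases, was at 59.1, 50.3 and 55.0 in the control mice and 41.5, 43.8 and 63.7 CPM in the SRF mice. The highest values were those of the 2 photoreceptor-rich libraries, and the groups overlapped (log2 fold change -0.14, SE 0.19). Without those libraries the log2 fold change was -0.31. Uhrf1, which carries DNA methylation through replication, had a log2 fold change of -0.05 (SE 0.33). The untested Cdc6, a licensing factor, was at most 1.11 CPM.

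The 4 genes of nucleotide supply had a median log2 fold change of 0.01. Rrm1 and Rrm2 are the subunits of ribonucleotide reductase, and their log2 fold changes were -0.06 (SE 0.17) and 0.15 (SE 0.43). Rrm2, the subunit made in S phase, was at 2.83, 2.39 and 6.59 in the control mice and 4.11, 4.12 and 4.99 CPM in the SRF mice. Control mouse 3 was the highest library. Tyms, thymidylate synthase, had a log2 fold change of 0.07 (SE 0.21), and Tk1, thymidine kinase, of -0.11 (SE 0.41). Tk1 shares 83 exon bases with Afmid on the opposite strand, at 3.22 ± 1.39 CPM in control and 4.03 ± 0.242 CPM in SRF mice (SD, n = 3).

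Mitotic cyclins and kinases had the most negative values among the groups with more than 2 tested genes, with a median log2 fold change of -0.40 and 3 of 4 below 0. Without the 2 photoreceptor-rich libraries the median was -0.08, with 2 of 4 below 0, and nucleotide supply was lower, at -0.11. Cdk1, the kinase that drives mitotic entry, was at 17.9, 13.3 and 12.2 in the control mice and 9.30, 10.9 and 7.79 CPM in the SRF mice. Every SRF library was below every control library. The means were 14.5 ± 2.99 and 9.31 ± 1.54 CPM (SD, n = 3), or a log2 fold change of -0.63 (SE 0.22, 95% interval -1.16 to -0.11) with an edgeR adjusted p of 0.586. No listed gene overlaps Cdk1. Without control mouse 1 and SRF mouse 3, which were its highest and its lowest library, the log2 fold change was -0.35.

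Ccnb1, the cyclin B1 that activates CDK1, was at 3.50, 3.69 and 5.67 in the control mice and 2.54, 3.40 and 1.57 CPM in the SRF mice. Control and SRF values were apart, although SRF mouse 2 was close to control mouse 1. The log2 fold change, -0.78 (SE 0.40), was the lowest of the 33, with an unadjusted edgeR p of 0.091. Ccnb2, cyclin B2, had a log2 fold change of -0.16 (SE 0.40), and Birc5, survivin, which guides Aurora B to the centromere, of 0.01 (SE 0.38). The untested kinases Plk1, Aurka and Aurkb ranged from 0.896 to 2.90 CPM.

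Among the genes of spindle, kinetochore and cytokinesis, 5 of 8 tested genes were below 0, and the median log2 fold change was -0.10. Kif20a, a kinesin of the central spindle, was at 3.65, 3.80 and 3.17 in the control mice and 2.97, 2.17 and 2.13 CPM in the SRF mice. SRF libraries were all below control libraries (log2 fold change -0.54, SE 0.31), and 1271 of its exon bases are shared with Cdc23 on the opposite strand, at 99.8 ± 7.58 CPM in control and 92.6 ± 21.2 CPM in SRF mice (SD, n = 3). Bub1b, the checkpoint protein BubR1, was at 12.1, 10.6 and 10.1 in the control mice and 10.7, 6.96 and 18.9 CPM in the SRF mice. Its highest values were in the photoreceptor-rich libraries, SRF mouse 3 first (log2 fold change 0.16, SE 0.36). Without these libraries the direction turned, to -0.23.

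The kinetochore proteins Cenpe and Cenpf had log2 fold changes of -0.05 (SE 0.39) and -0.34 (SE 0.59). Cenpf varied widely, with 6.55, 1.79 and 2.67 in the control mice and 3.89, 3.29 and 1.46 CPM in the SRF mice. Control mouse 1 was the highest library and SRF mouse 3 the lowest. Kif11, the motor that separates the spindle poles, had a log2 fold change of 0.09 (SE 0.36). The microtubule-binding proteins Tpx2, Nusap1 and Prc1 had log2 fold changes of -0.14, 0.14 and -0.37, with SEs of 0.37 to 0.40. On the opposite strand, Nusap1 shares 172 exon bases with Oip5, at 0.583 ± 0.285 CPM in control and 0.463 ± 0.237 CPM in SRF mice (SD, n = 3). Prc1 shares 911 with Rccd1, at 0.858 ± 0.395 and 1.16 ± 0.392 CPM. The untested Bub1 and Kif23 did not exceed 2.55 CPM.

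Cdc20, which activates the anaphase-promoting complex, was at 10.3, 6.40 and 9.85 in the control mice and 8.98, 8.02 and 6.78 CPM in the SRF mice. The groups overlapped (log2 fold change -0.16, SE 0.25). Ube2c, the ubiquitin-conjugating enzyme of that complex, was not tested and ranged from 1.56 to 3.65 CPM. On the opposite strand, Cdc20 shares 53 exon bases with Elovl1, at 250 ± 10.5 CPM in control and 171 ± 15.5 CPM in SRF mice (SD, n = 3). Ube2c shares 592 with Tnnc2, at 315 ± 90.0 CPM in control and 431 ± 240 CPM in SRF mice.

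Mki67 and Top2a, widely used as proliferation markers, act on mitotic chromosomes. Mki67 was at 6.25, 4.12 and 3.59 in the control mice and 5.89, 4.07 and 1.51 CPM in the SRF mice. The groups overlapped, with SRF mouse 3 lowest, and the log2 fold change of -0.28 (SE 0.51) had a 95% interval from -1.49 to 0.93. On the FPKM scale the Mki67 means ran the other way, at 0.457 ± 0.144 in control and 0.523 ± 0.345 in SRF mice (SD, n = 3). Top2a, topoisomerase II alpha, was at 8.64, 3.69 and 7.59 in the control mice and 6.06, 4.23 and 2.69 CPM in the SRF mice. These groups overlapped too, and the log2 fold change was -0.62 (SE 0.43). A higher level of Mki67 in SRF mice was thus not detected, and its interval ends just below a doubling.

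Many of these differences moved when the 2 photoreceptor-rich libraries were left out. In the fit of the remaining 2 control and 2 SRF mice, 20 genes were above 0 and 13 below, the median was 0.11, and 12 of 33 genes changed sign. Mki67 was then at 0.37, Cenpf at 0.67, Cenpe at 0.58 and Nusap1 at 0.61 on the log2 fold change scale. Ccnb1 was at -0.67 and Top2a at -0.15. The median of the 2 mitotic chromosome genes, Mki67 and Top2a, turned from -0.45 to 0.11. The median of the spindle, kinetochore and cytokinesis genes turned from -0.10 to 0.31, and that of the S phase cyclins and kinases from -0.14 to 0.01. The replication licensing and fork genes had a median of 0.16 in this fit, with 8 of 10 above 0. No cell cycle gene was called in that fit by edgeR after Benjamini-Hochberg adjustment, where 153 of all genes were.

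**Figure D4:**
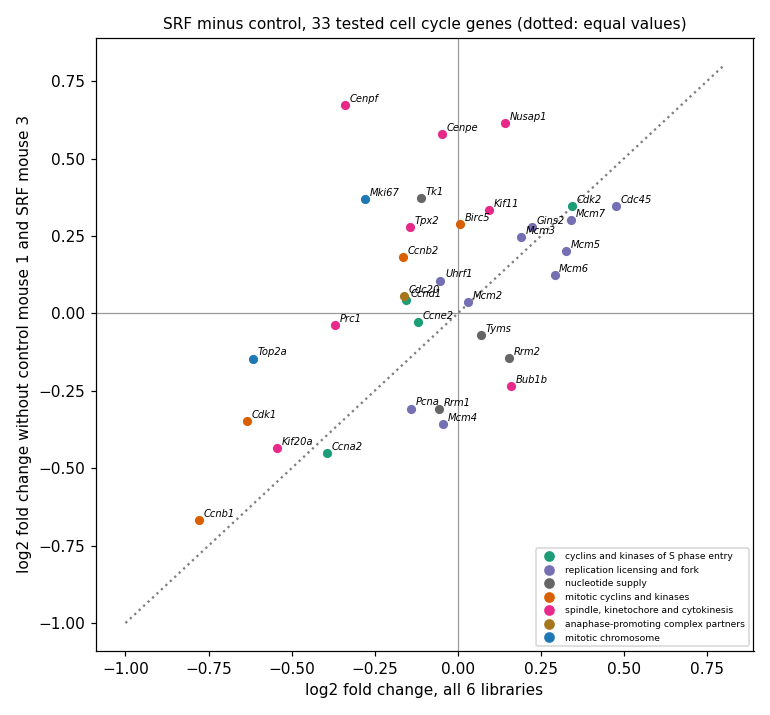
Log2 fold change (SRF minus control) of the 33 tested cell cycle genes in all 6 libraries (x axis) and without control mouse 1 and SRF mouse 3 (y axis), coloured by role, with equal values on the dotted line. Cenpf, Nusap1, Cenpe and Mki67 lie far above the line, at 0.67, 0.61, 0.58 and 0.37 without these libraries.

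Regulators of the cycle were examined in 9 further lists, also chosen with earlier results of these data known. They held 125 genes, of which 124 were listed and 103 tested. None was called by edgeR after Benjamini-Hochberg adjustment, and 7 were higher (6.80% of 103, against 4.16% of all tested genes) and 3 lower (2.91% against 2.85%) at an unadjusted p under 0.05. DESeq2 called 2, E2f6 and Ube2s, both higher (1.94%, against 0.803% of all tested genes called higher). Without the 2 photoreceptor-rich libraries edgeR called E2f6, Ube2s and Cdkn1a, with adjusted p of 0.0276, 0.00304 and 0.0329. That fit called 153 of its 13145 tested genes. It held only 2 control and 2 SRF mice, after libraries were left out for their values in these same data. In all 6 libraries the list medians of the log2 fold change lay between -0.11 and 0.19.

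Of the 6 tested inhibitors of cyclin-dependent kinases, 5 were above 0 (83.3%, against 50.3% of all tested genes) and 2 were higher with such an unadjusted p, also the 2 without overlap in that direction (33.3%, against 4.16% and 6.71%). With 6 genes these shares rest on few values. The median was 0.15. Cdkn1a, p21, which p53 induces and which blocks CDK2, was at 26.4, 33.5 and 30.2 in the control mice and 62.8, 54.0 and 37.1 CPM in the SRF mice. All SRF libraries were above all control libraries (log2 fold change 0.77, SE 0.21, edgeR adjusted p 0.421). By DESeq2 the adjusted p was 0.0809. Cdkn2b, p15, an inhibitor of CDK4 and CDK6, was at 2.75, 4.34 and 4.59 in the control mice and 7.79, 9.08 and 6.16 CPM in the SRF mice. These groups did not overlap either (log2 fold change 0.97, SE 0.30, edgeR adjusted p 0.498). The inhibitor below 0, Cdkn1b, was at 39.9, 46.2 and 40.7 in the control mice and 38.7, 39.5 and 25.6 CPM in the SRF mice. It was lower without overlap (log2 fold change -0.29, SE 0.19), 1 of the 6 against 6.43% of all tested genes, with SRF mouse 2 close to control mouse 1.

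Among 9 antiproliferative and p53-linked genes, 6 were above 0 (66.7%, against 50.3% of all tested genes), and the median was 0.19. The 3 with an unadjusted p under 0.05 by edgeR were also the 3 without overlap (33.3%, against 4.16% and 6.71%). Gadd45a, a stress-induced growth arrest gene, was at 10.1, 8.57 and 6.80 in the control mice and 13.5, 12.2 and 13.1 CPM in the SRF mice. All 3 SRF values exceeded the control values (log2 fold change 0.61, SE 0.20). Its relative Gadd45b and the growth arrest gene Gas1 had log2 fold changes of 0.62 (SE 0.23) and 0.52 (SE 0.20), also without overlap. The 3 genes below 0 had overlapping groups. They were Btg2 at -0.64 (SE 0.35), the furthest from 0 in the list, Mdm2 at -0.17 (SE 0.15) and Ccng1 at -0.005 (SE 0.11).

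Of 16 tested genes of the RB, E2F and DREAM groups, 8 were above and 8 below 0 (median 0.00). E2f6, an E2F family repressor, was at 31.2, 24.7 and 25.7 in the control mice and 46.9, 46.6 and 51.6 CPM in the SRF mice. The groups were far apart (log2 fold change 0.83, SE 0.13), with an adjusted p of 0.198 by edgeR and of 1.2e-04 by DESeq2. E2f5, another repressor of the family, had a log2 fold change of -0.34 (SE 0.13).

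Of 18 genes of the anaphase-promoting complex, 10 were above and 8 below 0 (median 0.01). Ube2s, its chain-elongating ubiquitin-conjugating enzyme, was at 27.5, 15.9 and 15.1 in the control mice and 65.9, 51.1 and 37.5 CPM in the SRF mice. The groups did not overlap (log2 fold change 1.41, SE 0.30), with an adjusted p of 0.299 by edgeR and of 8.6e-04 by DESeq2. Ube2s shares 183 exon bases with Rpl28 on the opposite strand, which averaged 57.8 ± 12.7 CPM in control mice and 65.5 ± 23.3 CPM in SRF mice (SD, n = 3).

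**Figure D5:**
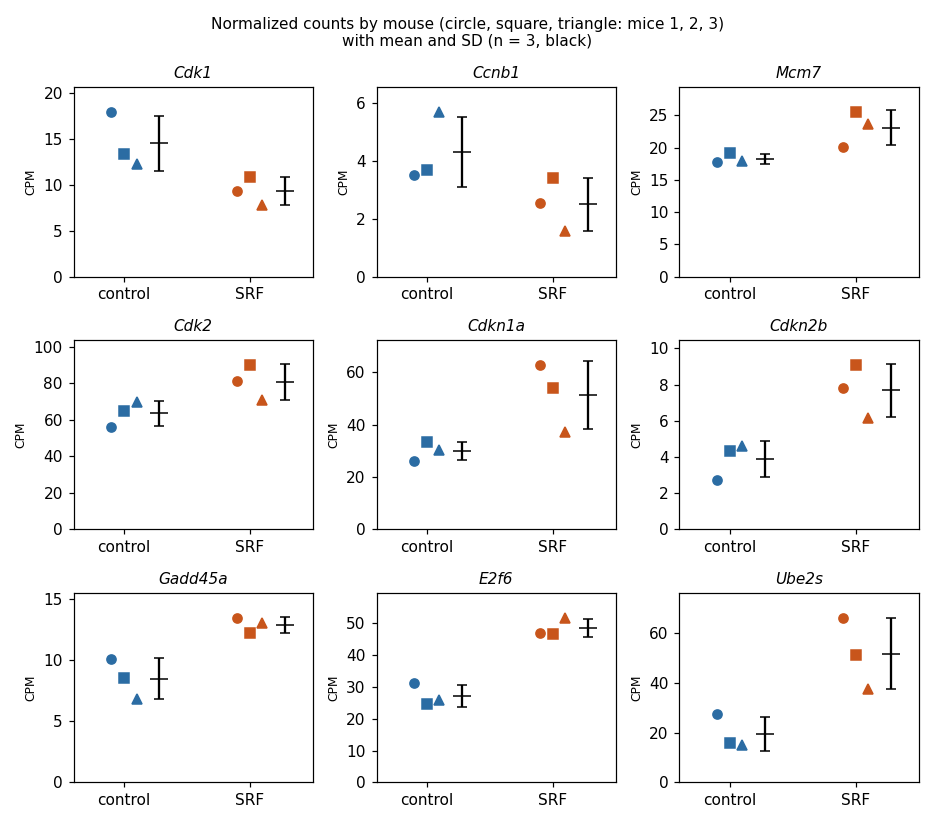
CPM by mouse (circle, square and triangle for mice 1, 2 and 3) of 4 cell cycle genes and 5 regulators, with the mean and SD (n = 3) in black beside each group. SRF points lie below control points for Cdk1 and Ccnb1 and above them for the other 7. The nearest control and SRF points of Cdk2 are at 69.6 and 70.8 CPM.

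The other lists held few such genes. Of the other replication genes 10 of 27 tested were above 0 (median -0.09), and Rrm2b, the p53-inducible subunit of ribonucleotide reductase, had a log2 fold change of -0.38 (SE 0.13). Of the other G1 and G2 cyclins, kinases and phosphatases 6 of 13 were above 0 (median 0.00), and Ccnh, the cyclin of the CDK-activating kinase, had a log2 fold change of -0.28 (SE 0.12). Of the other kinetochore genes 1 of 7 was above 0 (median -0.11), and of condensin and cohesin 1 of 6 (median -0.05), none with an unadjusted p under 0.05 by edgeR. The 2 tested growth regulators lay on either side of 0.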

How the data were processed

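RNA-seq of RPE-choroid from 3 control and 3 SRF mice was analysed, and groups were taken from the sample titles. The authors filtered reads with FASTP, counted those on each gene with StringTie and deposited whole-number counts and FPKM values, a unit that divides fragments by transcript length and library size. The aligner, build and strandedness are not given in the sources used here. Of 15663 identifiers 15659 were found in GENCODE M21 (GRCm38), which gave symbols and overlaps.

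Testing was limited to genes above 50 counts in 2 or more samples and used edgeR 4.0.16 in R 4.3.3 (TMM, glmQLFit with legacy = TRUE, glmQLFTest, Benjamini-Hochberg adjustment). The count minimum and the threshold, an adjusted p under 0.05 with a log2 fold change of at least 0.5, follow the study's methods, which used DESeq2. SEs are log2 fold changes divided by the square root of the F statistic. The totals per library are sums over listed genes, and no listed gene has a count under 1. Exact permutation tests were two-sided, on log2 CPM.

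The members and lists were chosen with earlier results of these data known, as was the older form of the edgeR fit. Named were all 41 genes and, of the regulator lists, genes with an unadjusted p under 0.05 by edgeR or called by DESeq2. The settings tried beside it included DESeq2 1.42.0, limma 3.58.1 (voom, and FPKM on the log2 scale with a pseudocount of 0.1 or of 1), different normalizations and filters, a photoreceptor covariate, a replicate block and leaving out libraries. The tests were checked on simulated counts. These were drawn separately for each gene, so a difference shared by many genes, as in photoreceptor RNA, was not simulated.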

Additional observations from a re-analysis of the deposited data

How the results depend on the processing

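No cell cycle gene was called under any of the 18 alternatives, most of which called few genes of the whole table. The number higher at an unadjusted p under 0.05, 2 with edgeR, was 1 without a filter on low counts, with DESeq2, with limma voom, on log2(FPKM + 0.1) and log2(FPKM + 1), with the photoreceptor covariate and without both photoreceptor-rich libraries. Leaving out 1 mouse gave 0 to 2, with 0 without control mouse 1, control mouse 2 or SRF mouse 2 and 1 without control mouse 3 or SRF mouse 3. The number lower, 1, was 2 with the covariate (Ccnb1 and Cdk1), 0 without both photoreceptor-rich libraries, and 0 to 1 when 1 mouse was left out, with 0 without control mouse 1 or SRF mouse 1 and with Pcna in place of Cdk1 without SRF mouse 3. The median log2 fold change, -0.05, was 0.11 without both photoreceptor-rich libraries and lay between -0.11 and 0.06 when 1 mouse was left out. The cause of these shifts was not tested. Rrm2b turned to 0.016 on log2(FPKM + 0.1) and 0.013 on log2(FPKM + 1). Of the tested cell cycle genes, 3 changed sign on the first of these scales and 4 on the second. Genes called in the whole table numbered 0 with edgeR, 153 with DESeq2 and 153 without both photoreceptor-rich libraries. Every other alternative called at most 5, so the absence of called cell cycle genes there says little about them.

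Over the 18 alternatives the log2 fold change of Cdk1 lay between -0.76 and -0.35 with an unadjusted p under 0.05 in 14. That of Cdk2 lay between 0.26 and 0.44 with such a p in 13, and that of Mcm7 between 0.26 and 0.43 with such a p in 6. Cdkn1a, E2f6 and Ube2s had such a p in all 18, while their adjusted p ran up to 0.9999 and down to 0.0329, 1.2e-04 and 8.6e-04.

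Mouse numbers do not pair the samples: same-numbered mice are different animals, and their deviations from the group means correlated at -0.48, 0.49 and -0.30. With the replicate block 0 cell cycle genes were called, 2 were higher (Mcm6 and Mcm7) and 1 lower (Cdk1) at an unadjusted p under 0.05, and the median was -0.06. Depth limits the result for the 16 genes under 5 CPM, and a lone pair of mice per group remained without both photoreceptor-rich libraries.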
